A study of Mus musculus with 6 samples.

Results

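The genes described here are 9 transcription factor genes of early lineage choice, namely Mixl1, Gsc, Mesp1, Tbx6, Foxa2, Sox17, Gata4, Gata6 and Hhex, taken by name out of 21887 protein-coding genes. Their members in the data are the SALL4 intervals that lie in the gene or within 50 kb of either end. There were 14 of 55058 intervals in wild-type replicate 1 and 14 of 48295 in wild-type replicate 2, and 0 of 34 and 0 of 39 in knockout replicates 1 and 2. All intervals counted lay wholly inside a window.

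SALL4, a zinc-finger protein that binds DNA, was mapped by CUT&RUN, a method that tethers a nuclease to an antibody in permeabilised cells and sequences the short fragments it releases near the target. The cells were mouse embryonic stem cells kept in 2i medium, which holds kinase inhibitors, with the cytokine LIF. The lines were Sall4 F/F, with a floxed but undeleted Sall4 gene (named wild type in the titles and below), and Sall4 -/-, a knockout. Each line gave 2 SALL4 libraries made with the same antibody, and an IgG library that was not analysed here. Each genotype is represented by a single line, and the labels do not say whether the 2 libraries came from separate cultures, so the spread between them may be technical. Only binding was measured, so the labelled cell type and the silence of these genes could not be checked against expression.

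At gastrulation, cells of the epiblast pass through the primitive streak and become mesoderm or definitive endoderm, while the primitive endoderm has already separated from the epiblast in the blastocyst. Embryonic stem cells in this medium resemble the epiblast before that choice, and the genes that direct it are known to be off or very low in them. SALL4 is known to be needed in the early embryo, to act with the repressive NuRD complex and to prefer short AT-rich DNA elements.

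The windows held few SALL4 intervals, and none lay inside any of the 9 genes. Gsc held 6 of the 14 intervals in each wild-type list, and Mixl1, Tbx6 and Hhex held 0 in every list. The remaining 5 genes held 1 to 3 intervals per wild-type list, at distances of 12.3 to 43.6 kb from the gene. Counts in wild-type replicates 1 and 2 were 2 and 1 at Foxa2, 1 and 2 at Sox17, 3 and 2 at Gata4 and 1 and 2 at Gata6. The totals were equal all the same, so an SD of 0 does not mean equal counts at each gene. Per library, wild type averaged 14 ± 0 intervals (SD, n = 2), whereas the knockout averaged 0 ± 0 (SD, n = 2). On the log2(number + 1) scale this is 3.91 higher in wild type, and an exact two-sided permutation of the 4 libraries gave p = 0.333, which is the smallest p that 2 libraries against 2 can give. Both wild-type counts exceeded both knockout counts at 6 of the 9 genes, where the same holds for 70.6% of coding genes, so this count is near the background. The exact permutation p of each of the 6 was 0.333, and 0.472 after Benjamini-Hochberg adjustment over all coding genes.

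**Figure D1:**
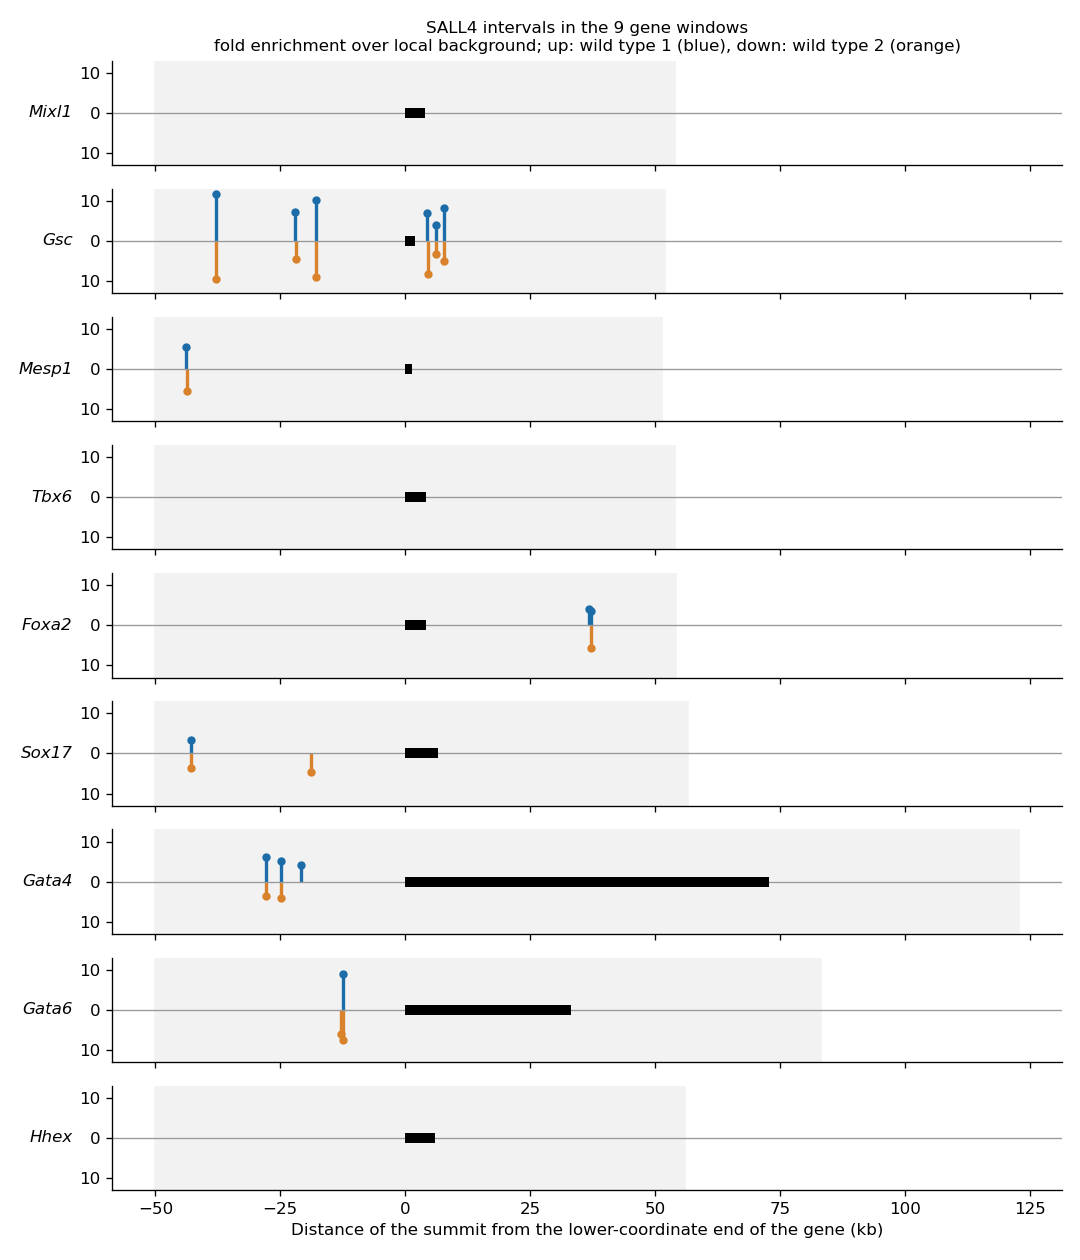
SALL4 intervals around the 9 genes. The horizontal axis is the distance of an interval's summit from the lower-coordinate end of the gene in kb, the black bar is the gene and the grey band the gene with 50 kb on each side. Stems give the fold enrichment over the local background, upwards for wild-type replicate 1 and downwards for replicate 2. Gsc carries 6 intervals in each replicate, no stem falls on a black bar, and Mixl1, Tbx6 and Hhex are empty.

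The knockout lists demanded more of an interval than the wild-type lists. Their weakest calls had a −log10 p-value of 6.61 and 7.12, against 3.55 and 3.60 in wild type. Of the wild-type intervals near the 9 genes, 8 of 14 and 7 of 14 reached a −log10 p-value of 7.12, and 9 of 14 and 8 of 14 reached 6.61. The remaining ones were weaker than any call in a knockout list. All knockout intervals lay on X and Y, which carry none of the 9 genes.

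Intervals that overlapped between the wild-type lists by at least 1 bp, and touched no knockout interval, were joined as consensus regions. The 9 windows held 12 such regions, at 6 of the 9 genes, while 68.7% of coding genes have at least 1 in the same window. Of the 7 genes that are at most 10 kb long, 4 had a region, against 54.5% of coding genes of that length. Of the intervals near the 9 genes, 12 of 14 in replicate 1 and 12 of 14 in replicate 2 were found in the other replicate. This is 85.7% in each (95% Wilson interval 60.1 to 96.0, counting error only), against 70.4% and 79.3% of the whole lists, values that lie within the interval. Both counts come from the same overlapping pairs, and 6 of the 14 intervals in each list lie at Gsc. The Wilson interval treats all of them as independent, so it is not a test against the whole lists.

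The sequences next to the starts of 3 genes are shown first, since Gsc has the nearest SALL4 region, Mesp1 has a region only far away and Hhex has none. They are the 250 bases before the annotated start, from RefSeq on GRCm38.p6, 5′ to 3′ on the gene's strand. Capitals mark ATATT or, on the other strand, AATAT, an AT-rich element of the kind SALL4 is known to bind. Mesp1 and Hhex were added after the values were seen. The Gsc stretch is chr12:104473237-104473486 on the minus strand, that of Mesp1 is chr7:79793591-79793840 on the minus strand and that of Hhex is chr19:37434591-37434840 on the plus strand.
Gsc: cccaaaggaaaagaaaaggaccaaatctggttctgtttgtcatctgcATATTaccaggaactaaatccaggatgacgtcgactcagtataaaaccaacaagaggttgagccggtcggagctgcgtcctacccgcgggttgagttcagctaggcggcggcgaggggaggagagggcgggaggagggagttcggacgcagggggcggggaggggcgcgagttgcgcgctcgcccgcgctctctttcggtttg
Mesp1: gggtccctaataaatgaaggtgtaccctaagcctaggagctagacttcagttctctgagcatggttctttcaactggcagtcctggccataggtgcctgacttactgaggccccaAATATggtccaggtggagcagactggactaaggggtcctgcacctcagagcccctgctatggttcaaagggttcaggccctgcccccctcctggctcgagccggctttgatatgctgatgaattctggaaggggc
Hhex: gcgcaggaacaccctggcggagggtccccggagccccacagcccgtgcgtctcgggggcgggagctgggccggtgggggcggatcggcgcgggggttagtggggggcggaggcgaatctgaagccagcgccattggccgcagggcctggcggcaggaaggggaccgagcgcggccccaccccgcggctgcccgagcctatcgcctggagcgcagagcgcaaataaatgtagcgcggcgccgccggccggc

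Promoter sequence was matched for 5 of the 9 genes, which are Gsc, Mesp1, Tbx6, Foxa2 and Hhex. The element occurred once before the starts of Gsc and Mesp1 and 0 times before those of Tbx6, Foxa2 (outermost start) and Hhex. Foxa2 has further annotated starts inside the gene, and the stretch before the innermost, chr2:148045465-148045714, holds it 4 times. Over all 7 matched stretches 3 hold the element. The element is held by 23.3% of the 32851 promoter sequences in the table, and by 20.6% of those of coding genes. The A+T share was 49.2% at Foxa2, 44.8% at Mesp1, 40.8% at Gsc, 40.4% at Tbx6 and 24% at Hhex, against a median of 47.6% over the table and 44.4% over coding genes. The Hhex stretch was richer in G and C than most, with only 3.04% of promoters lower in A+T. No SALL4 interval of either wild-type list lay on these stretches, with or without the element. A match of these letters is a description of the sequence and not a binding site.

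No gene of the 9 had a consensus region within 1 kb of its start, or of either end where the start was not matched. The background is low here too, at 6.95% of coding genes for starts and 8.94% for either gene end. Inside the gene body, the 9 genes again held 0 regions, where 27.6% of coding genes hold at least 1. Most of these genes are short, however, with a median length of 4.09 kb against 17.2 kb for all coding genes, and of coding genes of at most 10 kb only 4.44% hold a region. Gata4 and Gata6 are longer, at 72799 and 33127 bp, and were empty as well.

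Gsc (goosecoid, gene ID 14836, chromosome 12, 104471209 to 104473236) encodes a homeobox repressor of the anterior primitive streak and the organiser. Its window held 6 intervals in wild-type replicate 1, 6 in replicate 2 and 0 in each knockout list, and every interval had a partner in the other replicate. At 5.88 consensus regions per 100 kb, it was denser than the windows of 93.5% of coding genes. The wild-type and knockout counts did not overlap, as at 70.6% of coding genes, and the replicates were equal.

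The 6 regions at Gsc fell in separate groups on either side of the gene. Upstream of the start lay 3 regions at 2.12, 4.11 and 5.53 kb, all overlapping Gm10000, a long non-coding RNA gene. The nearest, chr12:104475358-104475877, had a fold enrichment of 6.98 in replicate 1 and 8.34 in replicate 2, with 12 and 14 fragments at the summit. Fold enrichment is the authors' ratio of fragments at the summit to the local background, with 1 added to each, and the fragment numbers were recovered from it and the p-value. The middle one, chr12:104477348-104477539, was weak, with 4.06 and 3.34, and rests on 7 and 4 fragments. The outer one, chr12:104478766-104479020, had 8.11 and 5.03, with a mean of 6.57 ± 2.18 (SD, n = 2).

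Beyond the other end of Gsc lay 3 regions at 17.6, 21.8 and 37.5 kb from the gene, in no annotated gene. The farthest, chr12:104433125-104433725, had the highest fold enrichment of all 9 windows in each replicate, with fold enrichments of 11.7 and 9.52 (mean 10.6 ± 1.55, SD, n = 2) and 16 and 13 fragments. It lay 0.206 kb from the long non-coding RNA gene Gm40562, and its nearest coding gene was Serpina3n, a serpin gene. The region at chr12:104452956-104453592 had 10.2 and 9.05 (mean 9.61 ± 0.782, SD, n = 2), on 15 and 17 fragments. Its −log10 p-value was 17.4 against 20.6 at the farthest region in replicate 1, but 16.3 against 15.7 in replicate 2. The region at chr12:104449156-104449431 had fold enrichments of 7.11 and 4.53. The means of the leading pair differ by less than the SD of the first and by more than that of the second. Even the first was not among the top of its list, since 14.3% and 19.9% of all intervals in replicates 1 and 2 had a higher fold enrichment.

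Mixl1 (gene ID 27217, chromosome 1, 180693043 to 180697034), a homeobox gene of the primitive streak that lies between Lin9 and Acbd3, held 0 intervals in all 4 libraries. Its nearest consensus regions lay 112 and 122 kb away on the higher and lower side. The nearer of them had fold enrichments of 4.73 and 6.004 in wild-type replicates 1 and 2. The gap between them measured 237 kb.

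Among the mesoderm regulators, Mesp1 (gene ID 17292, chromosome 7, 79792241 to 79793590) encodes a bHLH factor of the earliest heart mesoderm. Its window held 1 interval in each wild-type list and 0 in each knockout list. They formed a region at chr7:79748386-79748629 with fold enrichments of 5.51 and 5.44 and 7 fragments in each replicate. This region lay 43.6 kb from Mesp1 and inside the coding gene Wdr93, so Mesp1 was not its nearest gene. Tbx6 (gene ID 21389, chromosome 7, 126781483 to 126785548), a T-box gene of the paraxial mesoderm, held 0 intervals in all 4 libraries. Its window is crowded with other coding genes, among them Ypel3, Ppp4c, Mapk3 and Aldoa, and these held none either within the window. The nearest region lay 99.98 kb away, with fold enrichments of 4.82 and 5.03, and the gap around the gene measured 350 kb.

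Among the endoderm regulators, Foxa2 (gene ID 15376, chromosome 2, 148042877 to 148046969) encodes a forkhead factor of the node and the definitive endoderm that can open chromatin. Its window held 2 intervals in wild-type replicate 1, 1 in replicate 2 and 0 in each knockout list. The shared region, chr2:148079907-148080124, lay 32.9 kb upstream of the outermost start and in no annotated gene. Its fold enrichments were 3.56 and 5.63, on 6 and 8 fragments, so that it ranked near the bottom of the first list and in the middle of the second. The other replicate 1 interval lay beside it, with 4.06 on 5 fragments.

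Sox17 (gene ID 20671, chromosome 1, 4490928 to 4497426) encodes an HMG-box factor of the primitive and definitive endoderm. The window held 1 interval in wild-type replicate 1, 2 in replicate 2 and 0 in each knockout list. The shared region, chr1:4448023-4448222, was the weakest of the 12 in replicate 1, with a fold enrichment of 3.41, had 3.70 in replicate 2, where 2 other regions were lower, and lay 42.7 kb away, nearer to the photoreceptor gene Rp1. The interval seen in replicate 2 alone, at 18.8 kb, had 4.53 on 8 fragments. Hhex (gene ID 15242, chromosome 19, 37434841 to 37440731), a homeobox gene of the anterior visceral endoderm and foregut, held 0 in all 4 libraries. Its nearest region was 136 kb away, which is farther than for 87.4% of coding genes, and the gap around it was 374 kb.

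Gata4 (gene ID 14463, chromosome 14, 63198914 to 63271712) and Gata6 (gene ID 14465, chromosome 18, 11052510 to 11085636) encode zinc-finger factors, and Gata6 is known to start the primitive endoderm programme. Gata4 held 3 intervals in wild-type replicate 1, 2 in replicate 2 and 0 in each knockout list. All of them lay inside Fdft1, the neighbouring gene for squalene synthase, 20.8 to 27.7 kb from Gata4. The region at chr14:63174020-63174215 had fold enrichments of 5.08 and 4.02, and that at chr14:63171050-63171469 had 6.10 and 3.52.

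Gata6 held 1 interval in replicate 1, 2 in replicate 2 and 0 in each knockout list. Its shared region, chr18:11039909-11040166, was the strongest outside the Gsc window, with fold enrichments of 8.95 and 7.48 (mean 8.22 ± 1.04, SD, n = 2) and 12 and 10 fragments. It lay 12.3 kb from Gata6 and 1.87 kb from Gata6os, the antisense RNA gene at the Gata6 locus. On the other side of Gata6 the next region was 380 kb away, which gives a gap of 426 kb, the widest around any of the 9 genes.

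The median interval strength near these genes lay close to that of the lists as a whole only with the Gsc intervals included. The median fold enrichment was 5.80 in replicate 1, against 5.86 for its whole list, and 5.23 in replicate 2, against 5.56. Above the median of the list lay 7 of 14 and 6 of 14. Without the Gsc intervals the medians over the 8 remaining intervals of each list were 4.57 and 4.98. A fold enrichment of at least 10 was reached by 2 of the 14 and 0 of the 14 intervals, both at Gsc, while 20.4% and 19.4% of the whole lists reached it. The median number of fragments at the summit was 10 and 8, from 4 to 17, so single values carry a wide counting error.

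**Figure D2:**
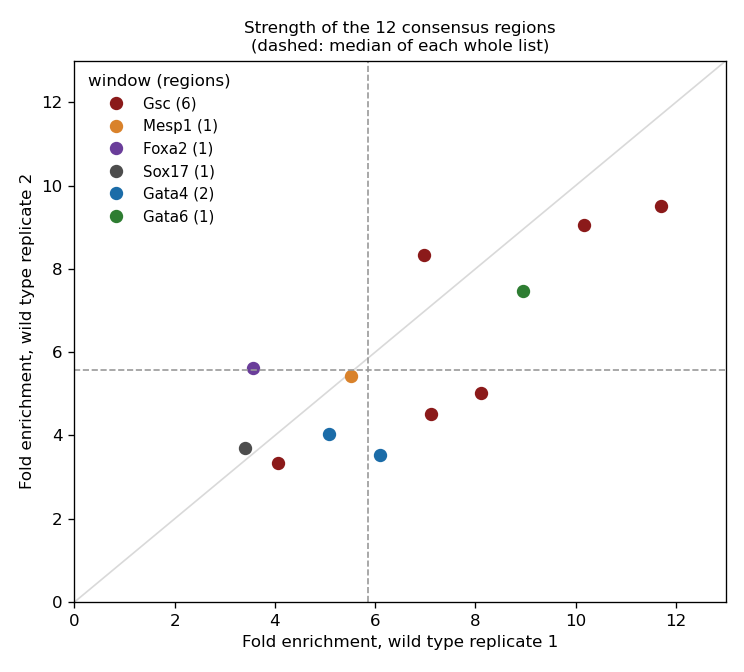
Fold enrichment of the 12 consensus regions near the 9 genes in wild-type replicate 1 (horizontal) and replicate 2 (vertical), coloured by gene window. Dashed lines are the medians of the whole lists, 5.86 and 5.56. The highest points, at 11.7 and 9.52 and at 10.2 and 9.05, belong to Gsc, and the Gata6 region lies at 8.95 and 7.48.

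A list of 15 further mesoderm genes and 13 further endoderm genes was described the same way. At least 1 consensus region was present in the windows of 8 of 15 and 7 of 13 of them, which is 53.3% and 53.8%, against 68.7% of coding genes. Many of them are short, with median lengths of 4.89 and 10.4 kb against 17.2 kb for all coding genes. Of coding genes of at most 10 kb, 54.5% have a region. The median densities of the 15 mesoderm and 13 endoderm genes were 0.962 and 0.602 regions per 100 kb. The 9 regulators had a median of 0.939, and all coding genes 0.970. Other measures lay further apart. In wild-type replicates 1 and 2 taken singly, the regulators had medians of 0.939 and 0.987 intervals per 100 kb, against 1.75 and 1.48 for all coding genes. Pooled over the windows, the regulators had 1.16 consensus regions per 100 kb, or 0.644 without Gsc, against 1.86. The densest of the further genes were Otx2, Dkk1 and Pdgfra, with 8.12, 6.76 and 4.08 regions per 100 kb. Otx2, a homeobox gene of the anterior epiblast and visceral endoderm, had 14 and 11 intervals in the wild-type lists and 9 regions. Dkk1, a secreted WNT inhibitor, had 8 and 10 intervals and 7 regions. Pdgfra, a receptor of mesoderm and primitive endoderm, had 6 and 6 intervals and 6 regions. In all, 13 genes of the list, among them Mesp2, Lhx1, Foxf1, Sox7 and Foxa3, had no consensus region, and the knockout lists held 0 intervals at all 28.

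Genes of other roles in the same libraries are given for scale. The windows of 13 pluripotency regulators held 178 and 168 wild-type intervals, and all 13 had a consensus region, with a median of 6.25 per 100 kb and a range of 0.955 (Pou5f1) to 17.4 (Klf5). Of these genes 10 of 13 held a region inside the gene body, against 0 of the 9 lineage regulators and 27.6% of coding genes, but they are longer, with a median of 11.9 kb against 4.09 kb. The 9 trophoblast regulators had a median of 0.976 and 8 of 9 with a region, and the 79 ribosomal protein genes had a median of 1.95. In wild-type replicates 1 and 2 taken singly, the medians were 2.79 and 0.976 intervals per 100 kb for the trophoblast regulators. They were 2.94 and 2.86 for the ribosomal protein genes and 12.1 and 10.7 for the pluripotency regulators. No test of these differences was made, since each list is a choice of genes and not a sample. Gsc lies inside the range of the pluripotency genes, and Gata4, Mesp1 and Foxa2 do so only through Pou5f1, since the next lowest, Esrrb, had 3.45.

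**Figure D3:**
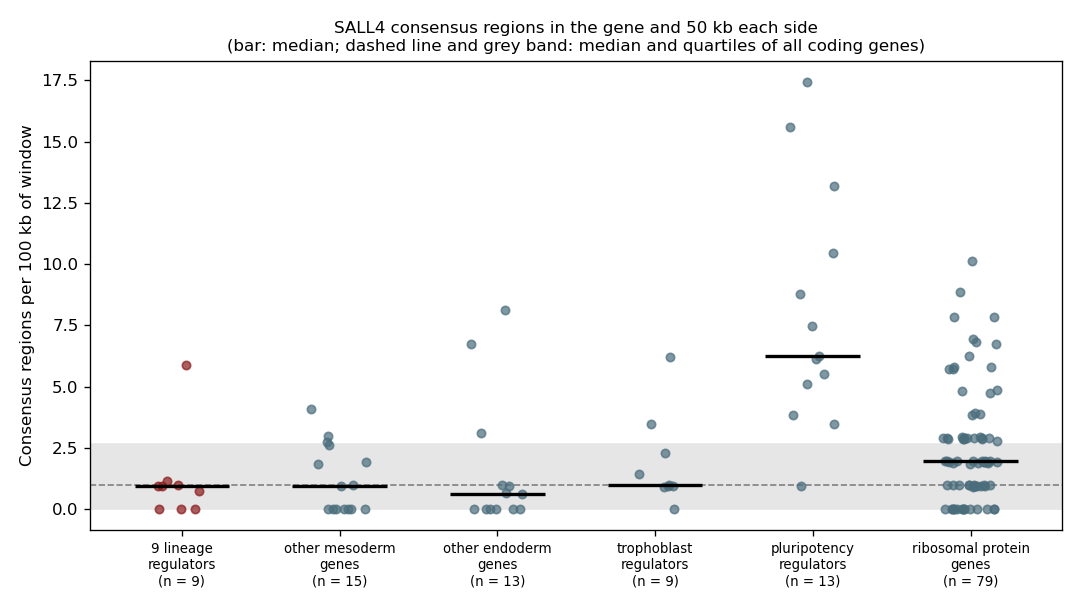
Consensus regions per 100 kb in the gene and 50 kb on each side, 1 point per gene, for the 9 regulators and 5 other gene lists. Black bars are list medians, and the dashed line and grey band are the median (0.970) and quartiles of all coding genes. Of the 9 regulators only Gsc, at 5.88, lies above the band, and the pluripotency regulators have a median of 6.25.

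The surroundings were then followed outward from each gene. Within 10 kb of the gene the 9 regulators held 3 consensus regions, all at Gsc, so that 1 of 9 had a region in this ring against 26.1% of coding genes. With the gene body counted too, which is longer in most coding genes, it was 1 of 9 against 42.1%. From 10 to 50 kb there were 9 regions, from 50 to 100 kb 11, from 100 to 200 kb 31 and from 200 to 500 kb 144. Per 100 kb these are 1.67, 1.25, 1.22, 1.72 and 2.67 regions. Without Gsc they are 0, 0.938, 0.375, 1.94 and 2.85. All coding genes stayed near a single level, from 2.09 nearest the gene to 1.72 at 200 to 500 kb, and the pluripotency regulators went the other way, from 14.6 to 2.22. The separate lists gave the same order for the 9 regulators at the ends, 1.67 against 3.81 in replicate 1 and 1.67 against 3.30 in replicate 2.

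**Figure D4:**
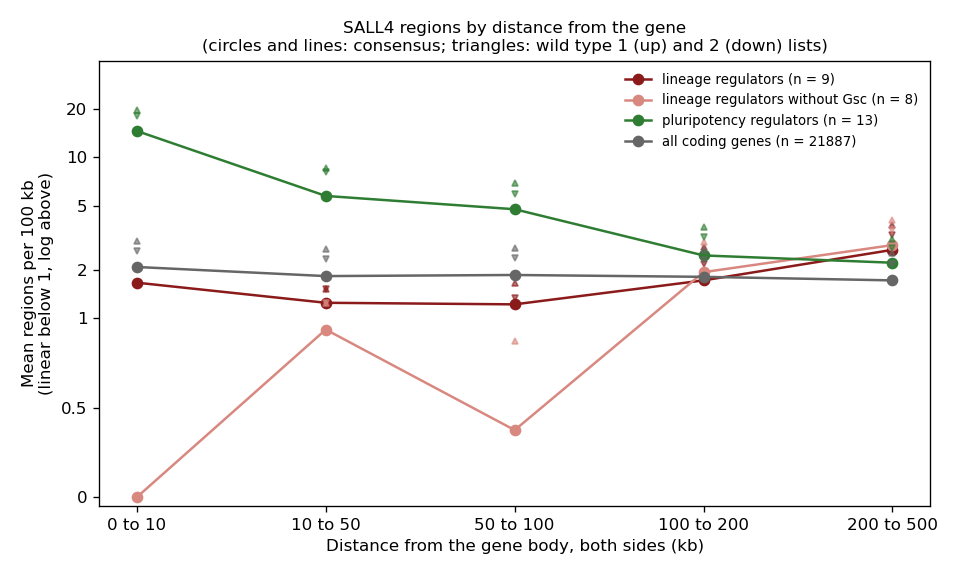
Mean number of SALL4 regions per 100 kb (linear below 1, logarithmic above) by distance from the gene body in kb. Lines with circles are consensus regions and triangles the separate wild-type lists. The 9 lineage regulators rise from 1.67 nearest the gene to 2.67 at 200 to 500 kb, the 8 without Gsc start at 0, and the pluripotency regulators fall from 14.6 to 2.22.

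Gene by gene, 7 of the 9 regulators had fewer regions per 100 kb within 50 kb than within 500 kb, against 56.9% of coding genes and 60.5% of those of at most 10 kb. The exceptions were Gsc, with 5.88 near and 2.096 wide, and Foxa2, with 0.961 near and 0.697 wide. Within 500 kb all 9 genes had a region, as do 96.5% of coding genes. They had 7 (Foxa2) to 35 (Mesp1) regions, with a median of 2.29 per 100 kb against 1.53 for all coding genes. The empty windows of Mixl1, Tbx6 and Hhex thus lay in stretches that held 16, 34 and 23 regions. Whether gene density, mappability or base composition moves with these counts was not tested.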

How the data were processed

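SALL4 CUT&RUN was measured in 4 libraries, 2 per Sall4 genotype, grouped and numbered by their titles. The titles were followed where other records differ from them: peak names of wild-type replicate 2 write the genotype as KWT, and the antibody field of the IgG samples names SALL4, under a different catalogue number. The submitters' processing notes name Trim Galore 0.6.0, cutadapt 1.18, FastQC 0.11.8, BWA 0.7.17 and MACS2 2.1.1.20160309 and the builds GRCm38 and mm10. Settings and the control used are not given in the sources used here. The deposited lists, called per library, hold a fold enrichment (a ratio), −log10 p-values and q-values, a score (10 times the −log10 q-value, whole part) and a summit offset.

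Overlapping lines of a list were merged, keeping the highest fold enrichment. Gene positions and the 5 matched promoters came from the GRCm38.p6 RefSeq tables, which give no exons. Summit fragments were recovered as the whole number that fits the deposited fold enrichment (with a pseudocount of 1 on summit and background) and p-value within 0.0001 in −log10 p, which worked for 100% of intervals, with medians of 9 fragments in each wild-type list. Read totals are not in the lists. Counting and recovery were tested on simulated data. The genes, lists and settings were chosen with earlier results of these data known. Every member was named, with its best-ranked and nearest regions, and the 3 densest further genes. In the further list 13 genes tied at 0 regions and were named in part. Sequence at the intervals was not analysed here. Alternatives were other flanks, stricter limits, stricter overlaps, nearest genes, and each library left out. Python 3.11.15, numpy 2.4.6, pandas 2.3.3, scipy 1.17.1 and matplotlib 3.10.9 were used.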

Additional observations from a re-analysis of the deposited data

How the results depend on the processing

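The wild-type excess of 3.91 on the log2 scale fell to 2.0 with a flank of 10 kb and at a −log10 q of at least 10, to 0.792 at a fold enrichment of at least 10 (exact permutation p = 1, with 0 intervals in wild-type replicate 2 as in the knockout) and to 0 in the gene body alone. In the other alternatives it lay between 2.79 and 4.88. Pairing same-numbered libraries (replicate block) left the difference at 3.91 on the log2 scale, and exact permutation of the signs gave p = 0.5, the smallest 2 pairs allow, and whether the numbers pair the libraries could not be tested with 1 total each. Leaving out single libraries gave a difference of 3.91 throughout, 12 to 14 regions, 6 genes with a region, 6 genes with separated counts, 0 at starts, median densities of 0.939 to 0.987 per 100 kb and median fold enrichments of 5.23 to 5.80. When a wild-type library is dropped, there is no value for the share found in the other replicate. Every interval of the remaining wild-type list then counts as a region, so near these genes the regions could only stay or rise in number. Dropping a knockout library could change nothing here, since all knockout intervals lay on X and Y. The stability of these counts was thus largely fixed in advance.

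The counts depend on the window and the limit. By construction, stricter limits keep fewer intervals, narrower windows hold less sequence and wider flanks hold more. With a flank of 10 kb, 3 regions at 1 gene remained (1 gene with separated counts), while 42.1% of coding genes have a region there. The median density was 0, the share found again 100% and the median fold enrichment 6.0. A flank of 100 kb gave 24 regions, a median density of 0.490 and a share of 84.4%. A flank of 500 kb, added after seeing the data, gave a density of 2.29. In the gene body alone all 4 values were 0. At a −log10 q of at least 10 there were 2 regions at 1 gene (1 with separated counts), a density of 0, a share of 66.7% and a median fold enrichment of 9.61. At a fold enrichment of at least 10 there were 0 regions, 0 genes on either count, a density of 0, a share of 0% and a median of 10.9. At a −log10 p of at least 8 there were 4 regions at 2 genes, 2 with separated counts, and a density of 0. Counting only intervals whose nearest coding gene is the regulator itself left 7 regions at 3 genes, 3 with separated counts, and a density of 0. A reciprocal overlap of 50% lowered the share to 78.6%, and summits within 100 bp lowered it to 64.3% and the density to 0.751. Within 3 kb or 5 kb of a start, 1 gene (Gsc) had a region. No share of all coding genes is given for the limits on q, fold and p, the nearest-gene rule or these start windows. The lower gene counts there cannot be read as particular to these regulators. The number of promoters with the element before the outermost start stayed at 2 with 50 bases after the start included.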

Other observations

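In the further mesoderm list, T (Brachyury), the T-box gene of the primitive streak, held 1 interval in each wild-type list, yet these did not overlap, so that it had 0 consensus regions and its nearest lay 94.1 kb away. Evx1, a homeobox gene of the streak, held 0 and 2. T and Evx1 were chosen after their values were seen. Eomes, a T-box gene of the streak and endoderm, held 2 and 3 intervals and 2 regions, the nearest at 2.78 kb. Cer1, a secreted Nodal inhibitor of the anterior endoderm, held 2 and 1 intervals and 1 region at 1.02 kb, closer than at any of the 9 regulators. These genes too were chosen after their values were seen.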
